A study of Homo sapiens with 6 samples.

Results

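Kinetochore and spindle checkpoint genes were followed in U2OS cells, a human osteosarcoma line, after depletion of E4F1, a zinc finger transcription factor that also acts as a ubiquitin ligase. The 40 genes were listed by name from general knowledge of the centromere, the kinetochore and the spindle assembly checkpoint. The rule uses no measured value, but the list was made with earlier results of these data known. These genes are 40 of 58219 genes in the count tables, and all 40 were among the 15765 genes with enough reads to be tested. One group of 3 libraries came from cells given a scramble short hairpin RNA (shRNA), the other group of 3 from cells given an shRNA against E4F1. Both groups shared the infection (24 h) and the puromycin selection that followed it (48 h), and their polyadenylated RNA was taken 72 h after the start. The labels describe 3 independent pools, so p-values measure the spread between pools of a single established line, and the sequences of the hairpins were not used here.

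The kinetochore is the protein structure on each centromere that holds spindle microtubules during cell division. Nucleosomes with the histone variant CENP-A mark the site, a constitutive network of CENP proteins binds them through interphase and mitosis, and the KMN network (the KNL1, MIS12 and NDC80 complexes) makes the contact with microtubules. The spindle checkpoint proteins gather on kinetochores that lack microtubules and delay anaphase until every chromosome is attached. Many of these transcripts are known to be made mainly late in the cell cycle, so that their level in a culture also follows the share of its cells in those phases. In RNA from bulk cultures, fewer cells in a phase and less RNA per cell cannot be told apart.

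Reads in genes numbered 14947085 to 16284450 in the control libraries and 16159934 to 16892139 in the E4F1 shRNA libraries, and single kinetochore genes had 167 to 12922 reads per library. Levels are given as CPM, read counts of a gene scaled to a common number of reads in genes per library, with TMM scaling between libraries. E4F1 itself was at 15.6, 17.7 and 19.1 CPM in control libraries 1, 2 and 3 and at 3.18, 3.15 and 2.5 CPM in E4F1 shRNA libraries 1, 2 and 3, or −2.57 on the log2 scale (SE 0.135, adjusted p = 7.65e-10 in edgeR). The CPM of cell type markers were scaled by library totals alone, without TMM scaling. The 8 mesenchymal markers summed to 6162 to 6326 CPM in control and 5707 to 5818 CPM in E4F1 shRNA libraries. Among them COL1A2 stayed at or under 0.990 CPM in every library. The epithelial markers summed to 22.2 to 26.6 CPM in control and 18.4 to 22.0 CPM in E4F1 shRNA libraries, with CLDN3 at 0. The blood markers summed to at most 3.03 CPM, with CD3E at 0, and the endothelial markers to at most 2.52 CPM.

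Most kinetochore and checkpoint transcripts were modestly higher in the cells given the E4F1 shRNA. Of the 40 genes, 29 rose (72.5%), 2 fell and 9 did not pass the test (edgeR quasi-likelihood test, adjusted p threshold 0.05 over all genes tested). Of all genes tested, 14.4% rose and 14.4% fell. The median log2 fold change was 0.28 over the 40 genes, with a range from −0.32 to 0.88, against −0.0096 over all genes tested. In 25 of the 40 genes every E4F1 shRNA library was above every control library, which held for 20.7% of all genes tested, and in 3 genes every one was below, which held for 21.1%. The 40 genes summed to 3467, 3894 and 3174 CPM in the control libraries and to 4427, 4414 and 4149 CPM in the E4F1 shRNA libraries.

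**Figure D1:**
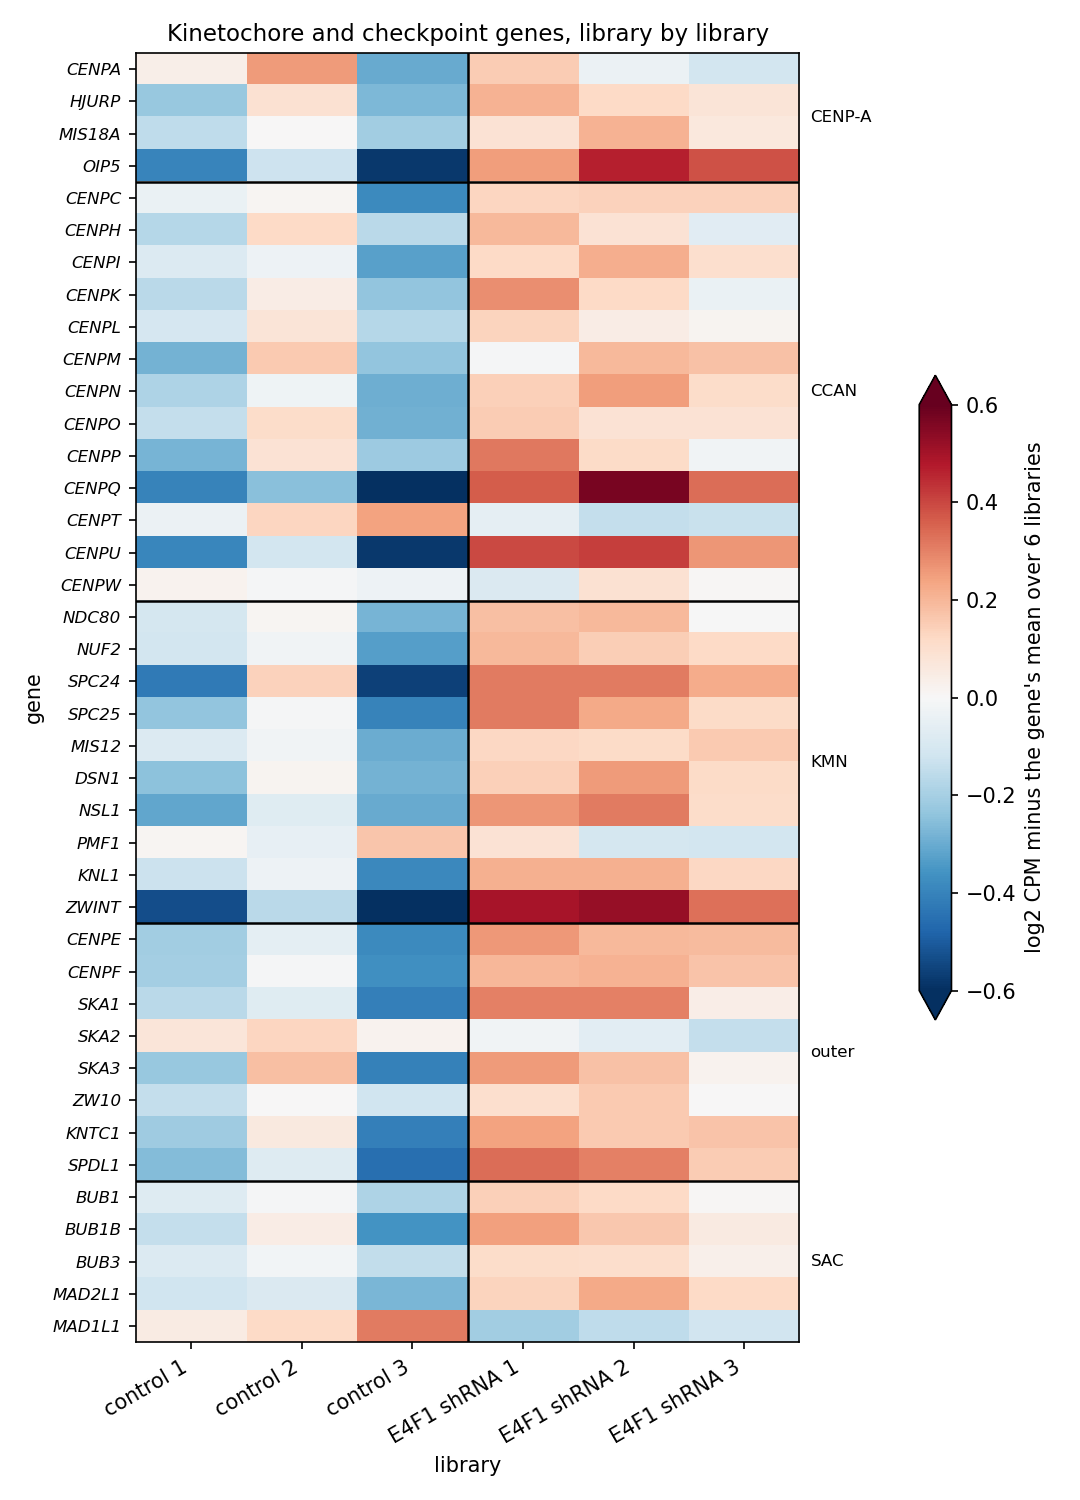
Log2 CPM of each of the 40 genes minus its mean over the 6 libraries, with libraries in columns, genes in rows ordered by role, and colour from low to high. Most rows are low in control libraries 1 and 3, near their mean in control library 2 and high in the E4F1 shRNA libraries, and MAD1L1, CENPT and SKA2 run the other way.

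In the CENP-A deposition pathway the genes of the loading factors rose and that of the histone did not pass, and the difference between them was not tested. CENPA, which encodes the centromeric histone variant, was at 54.6, 63.7 and 43.2 CPM in the control libraries and 59.3, 52.0 and 49.3 CPM in the E4F1 shRNA libraries. These ranges overlapped fully, and the log2 difference was −0.01 (SE 0.104, adjusted p = 0.954). Of the exonic bases of CENPA 6.96% are shared on the same strand with the gene SLC35F6, so its value is uncertain to that extent. OIP5, also called MIS18B, forms with MIS18A the complex that licenses centromeres for new CENP-A. It lay at 17.4, 21.1 and 15.3 CPM in the controls and 27.3, 31.7 and 29.9 CPM after E4F1 shRNA, a 1.65-fold rise (log2 0.72, SE 0.102, adjusted p = 6.19e-05) with no overlap. MIS18A was at 68.4, 76.1 and 65.6 CPM against 80.6, 87.9 and 79.2 CPM, also with no overlap, and rose by a smaller 0.24 on the log2 scale (adjusted p = 0.0127). HJURP, the chaperone that places CENP-A into chromatin, was at 89.9, 112 and 87.4 CPM against 122, 114 and 111 CPM. It rose (log2 0.26, adjusted p = 0.0181), although control library 2 was above the lowest E4F1 shRNA library. The HJURP call was lost in 5 of 17 alternative settings and the MIS18A call in 4.

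In the constitutive centromere-associated network 7 of 13 genes rose, none fell and 6 did not pass the test, where 14.4% of all genes tested rose. The median log2 fold change of the 13 genes was 0.24. CENPQ and CENPU stood above the rest, and both belong to the CENP-O/P/Q/U subcomplex, which helps recruit the kinase PLK1. CENPQ (GRCh38 chr6:49463378-49493107, plus strand) was at 19.8, 22.0 and 17.1 CPM in the controls and 33.8, 39.0 and 33.1 CPM in the E4F1 shRNA libraries. CENPU (chr4:184694618-184734133, minus strand) was at 58.2, 70.6 and 51.1 CPM in the controls and 100.4, 102 and 91.5 CPM after E4F1 shRNA. In both genes the 3 E4F1 shRNA libraries lay well above all controls, with rises of 1.80-fold (log2 0.85, SE 0.0948, adjusted p = 6.12e-06) and 1.63-fold (log2 0.71, SE 0.0871, adjusted p = 1.57e-05).

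The other subunits of that complex moved less. CENPO was at 106, 126 and 95.8 CPM against 130, 124 and 124 CPM and only just passed the test (log2 0.21, adjusted p = 0.0497), with control library 2 inside the E4F1 shRNA range. That call was lost in 8 of 17 alternative settings. CENPP ranged from 11.2 to 14.5 CPM in the controls and from 13.5 to 17.1 CPM after E4F1 shRNA and did not pass (log2 0.27, adjusted p = 0.0951). It passed without control library 2, its highest control (log2 0.40, adjusted p = 0.00896), but leaving out the highest control raises a difference by itself.

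CENPC, the scaffold that links CENP-A nucleosomes to the outer kinetochore, was at 42.2, 43.8 and 33.2 CPM in the controls. In the E4F1 shRNA libraries it was at 47.5, 47.7 and 47.8 CPM, a nearly constant level above all 3 controls (log2 0.26, adjusted p = 0.0270). The call was lost in 7 of the 17 settings, and without control library 3 CENPC was at log2 0.15 (adjusted p = 0.152). CENPN, which binds the CENP-A nucleosome directly, was at 93.6, 105 and 86.9 CPM against 118, 127 and 115 CPM (log2 0.33, adjusted p = 0.00132). CENPI, of the CENP-H/I/K/M subcomplex, was at 41.7, 43.2 and 35.2 CPM against 48.0, 51.5 and 47.5 CPM (log2 0.29, adjusted p = 0.00930). Both genes rose without overlap between the groups. CENPK, of the same subcomplex, rose at the edge of the threshold, with 36.3, 42.0 and 34.5 CPM against 49.3, 44.2 and 39.6 CPM (log2 0.24, adjusted p = 0.0496), and its groups overlapped. This call was lost in 10 of the 17 settings.

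The DNA-binding CENP-T branch of the network showed no rise. CENPT, the histone-fold protein that offers a second anchor for the NDC80 complex, was at 21.3, 23.8 and 25.8 CPM in the controls and 21.0, 19.7 and 19.9 CPM after E4F1 shRNA. All 3 E4F1 shRNA libraries were below all 3 controls, and the difference did not pass the test (log2 −0.23, SE 0.0873, adjusted p = 0.0577). Its partner CENPW ranged from 26.8 to 27.7 CPM in the controls and from 25.7 to 29.1 CPM after E4F1 shRNA (log2 0.01, adjusted p = 0.924). CENPH, CENPL and CENPM had log2 differences of 0.14, 0.13 and 0.23, with adjusted p of 0.243, 0.202 and 0.105 in edgeR. Without control library 2 all 3 passed, with log2 values of 0.25, 0.21 and 0.39 and adjusted p of 0.0118, 0.0201 and 0.000874. That library was the highest control in all 3, and leaving out the highest control raises a difference by itself.

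**Figure D2:**
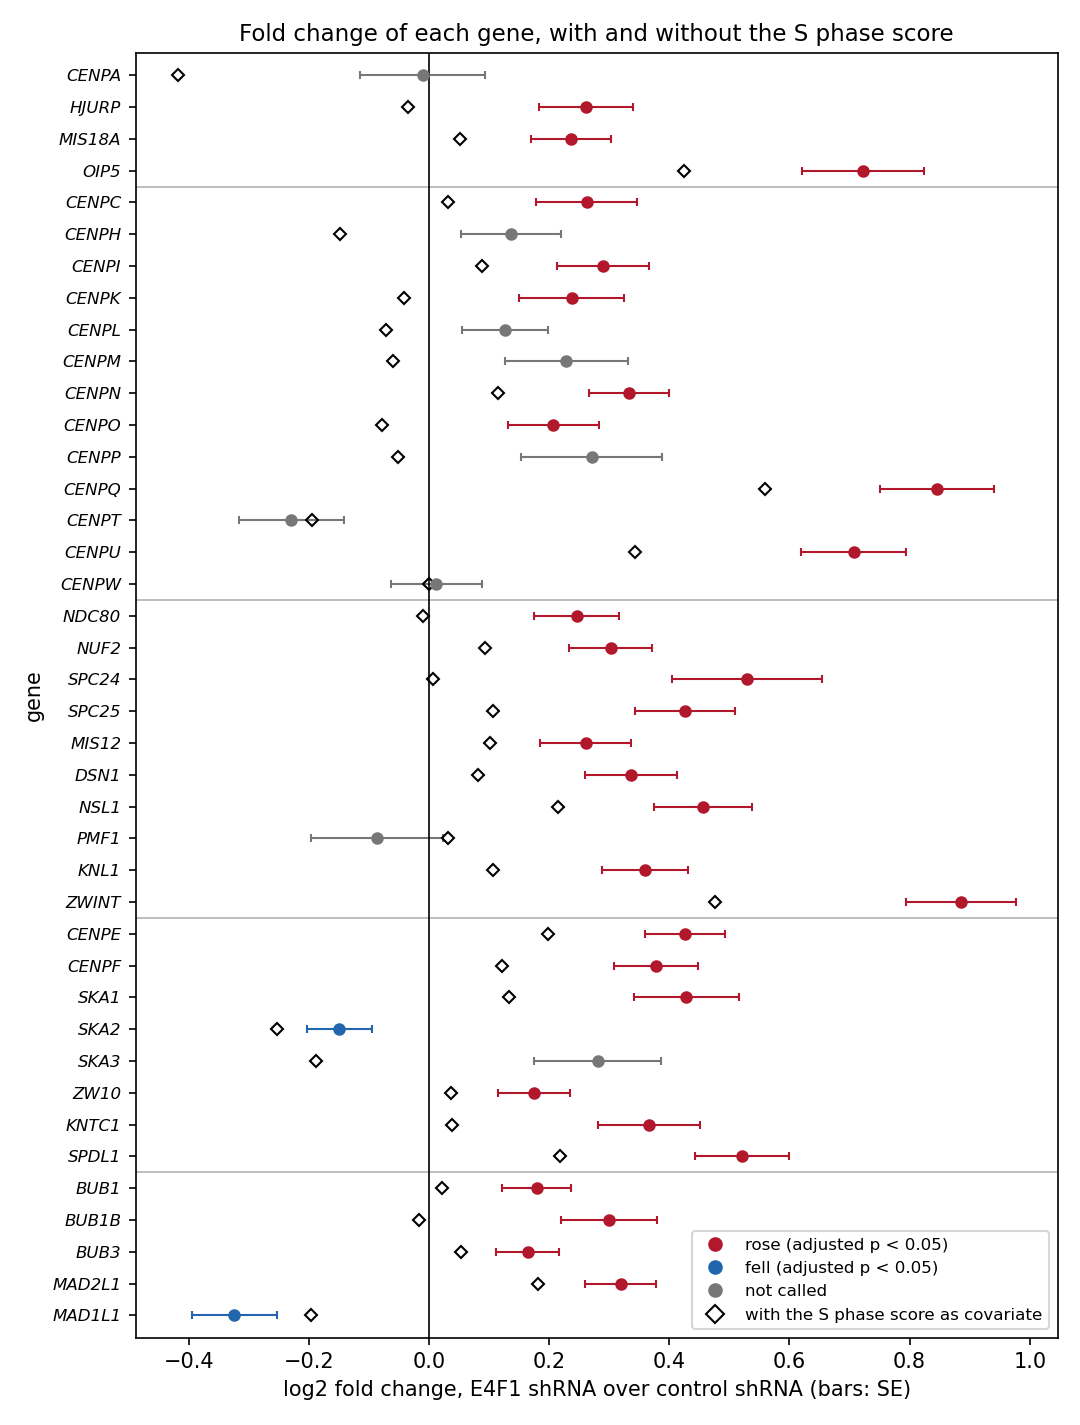
Log2 fold change of each gene, E4F1 shRNA over control, as points with bars of 1 SE, coloured by the call, with open diamonds for the same value when an S phase score is a covariate. ZWINT, CENPQ, OIP5 and CENPU lie farthest to the right at 0.88, 0.85, 0.72 and 0.71, and most diamonds lie near 0.

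The KMN network had 9 of its 10 genes among those that rose, where 14.4% of all genes tested rose. The median log2 fold change of the 10 genes was 0.35. ZWINT (chr10:56357228-56361275, minus strand), which binds KNL1 and helps hold the ROD, ZW10 and ZWILCH complex at kinetochores, was at 97.5, 126 and 89.8 CPM in the controls and 199, 203 and 177.5 CPM after E4F1 shRNA. It was the largest change of the 40 genes, from 105 ± 19.2 to 193 ± 13.6 CPM (SD, n = 3), or 1.85-fold (log2 0.88, SE 0.0915, edgeR adjusted p = 2.45e-06). The lowest E4F1 shRNA library was well above the highest control. KNL1, the scaffold that carries ZWINT and the BUB proteins, was at 132, 141 and 110.3 CPM against 167, 167 and 157 CPM, with no overlap (log2 0.36, adjusted p = 0.00132).

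All 4 genes of the NDC80 complex, the coupler that grips microtubules, rose, where 14.4% of all genes tested rose. NDC80 was at 205, 223 and 181.5 CPM in the controls and 250, 252 and 220.3 CPM after E4F1 shRNA (log2 0.25, adjusted p = 0.0143), and E4F1 shRNA library 3 was just inside the control range. Its call was lost in 6 of the 17 settings. NUF2, its partner at the microtubule end, was at 82.8, 88.1 and 71.1 CPM against 102, 99.0 and 97.3 CPM (log2 0.30, adjusted p = 0.00345). The other end of the complex, which joins it to the inner kinetochore, is formed by SPC24 and SPC25. SPC24 was at 20.8, 30.8 and 18.9 CPM against 34.6, 34.6 and 32.6 CPM (log2 0.53, adjusted p = 0.00434). SPC25 was at 54.8, 64.3 and 48.9 CPM against 80.1, 75.7 and 69.9 CPM (log2 0.43, adjusted p = 0.00106). NUF2, SPC24 and SPC25 had no overlap, and control library 2 was the highest control in each.

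In the MIS12 complex, which bridges CENPC and CENPT to NDC80 and KNL1, 3 of 4 genes rose, where 14.4% of all genes tested rose. MIS12 was at 36.4, 38.0 and 31.2 CPM in the controls and 42.0, 41.7 and 42.9 CPM after E4F1 shRNA (log2 0.26, adjusted p = 0.0153). DSN1, the subunit that Aurora B phosphorylates, was at 46.5, 55.9 and 45.3 CPM against 61.0, 65.8 and 59.8 CPM (log2 0.34, adjusted p = 0.00347). NSL1 was at 27.2, 32.1 and 27.3 CPM against 40.6, 41.9 and 36.4 CPM (log2 0.46, adjusted p = 0.000550). None of the 3 had overlapping groups. PMF1, the fourth subunit, ranged from 10.7 to 12.4 CPM and from 10.2 to 11.8 CPM (log2 −0.09, adjusted p = 0.591). Its value is uncertain, because 23.3% of its exonic bases are shared on the same strand with the readthrough gene PMF1-BGLAP.

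**Figure D3:**
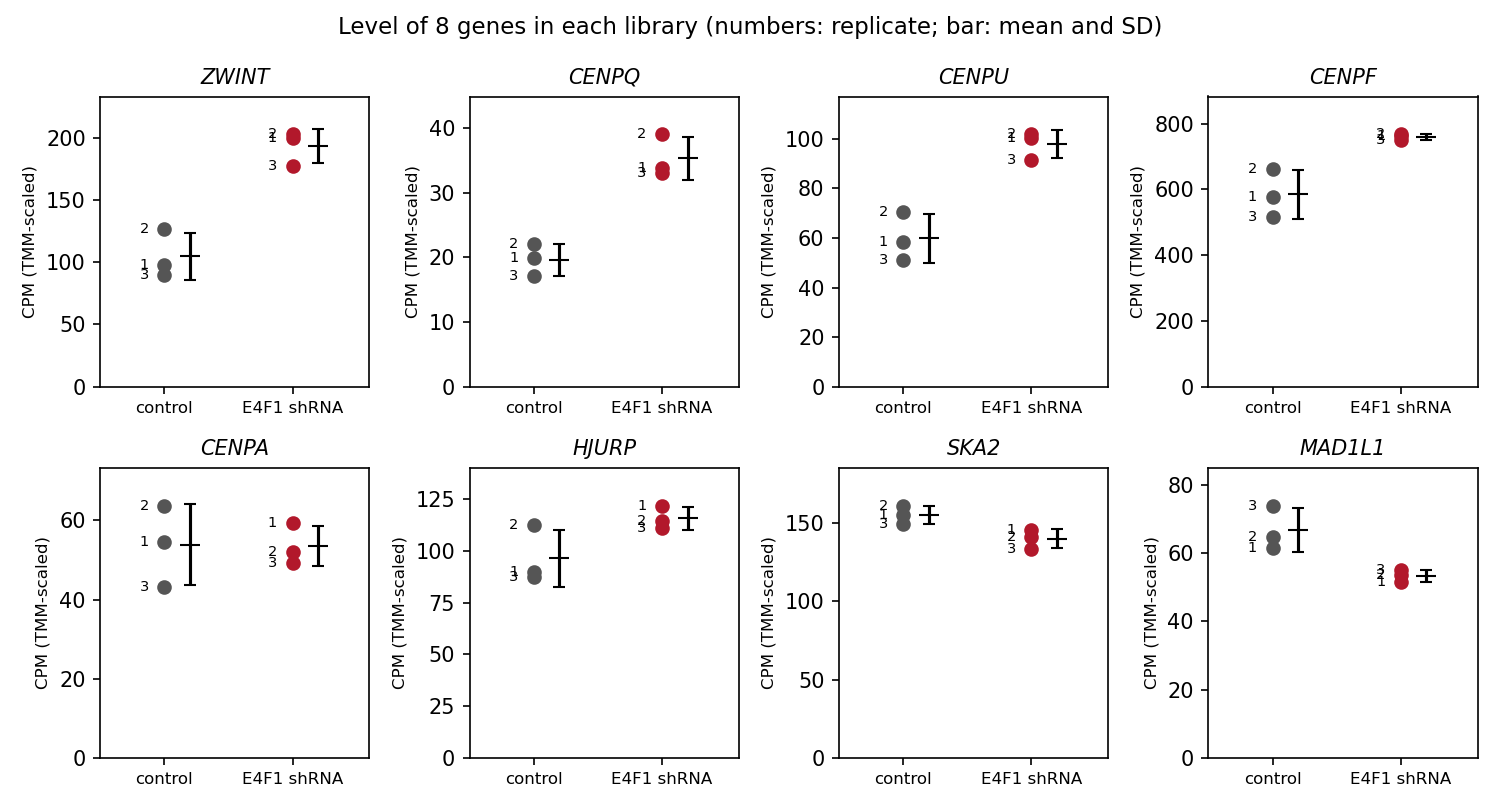
CPM in each library for ZWINT, CENPQ, CENPU, CENPF, CENPA, HJURP, SKA2 and MAD1L1, 1 panel per gene with its own axis from 0, with points for libraries and lines for the mean and SD of each group. The groups are apart in ZWINT, CENPQ, CENPU, CENPF, SKA2 and MAD1L1, the last 2 with E4F1 shRNA lower, and overlap in CENPA and HJURP.

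Of the 8 genes of the outer kinetochore and fibrous corona, 6 rose, 1 fell and 1 did not pass, where 14.4% of all genes tested rose and 14.4% fell. The median log2 fold change of the 8 genes was 0.37. CENPF, a large protein of the corona that binds dynein regulators and is used as a marker of G2 cells, was at 577.5, 662 and 515 CPM in the controls and 763, 767 and 748.5 CPM after E4F1 shRNA. Its level went from 585 ± 73.6 to 760 ± 9.84 CPM (SD, n = 3), with no overlap and a far smaller spread after E4F1 shRNA (log2 0.38, adjusted p = 0.000717). CENPE, the kinesin that carries chromosomes towards the metaphase plate, was at 164, 182 and 145 CPM against 227, 217 and 216 CPM (log2 0.43, SE 0.0672, adjusted p = 0.000176), also with no overlap.

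The corona components that bring dynein to kinetochores rose as well. SPDL1, the dynein adaptor Spindly, was at 71.4, 81.1 and 62.6 CPM in the controls and 108, 106 and 95.1 CPM after E4F1 shRNA (log2 0.52, SE 0.0785, adjusted p = 0.000114). KNTC1, which encodes ROD, was at 72.5, 87.7 and 63.2 CPM against 99.3, 93.9 and 94.7 CPM (log2 0.37, adjusted p = 0.00394). ZW10 was at 93.3, 103 and 95.0 CPM against 110.5, 115 and 103.5 CPM, a small rise (log2 0.17, adjusted p = 0.0365). In all 3 genes the groups did not overlap, and in ZW10 they came close to touching and the call was lost in 7 of the 17 settings.

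The 3 genes of the SKA complex, which helps kinetochores follow shortening microtubules, gave different calls. SKA1 was at 40.2, 42.7 and 33.9 CPM in the controls and 55.4, 55.5 and 46.3 CPM after E4F1 shRNA, a rise without overlap (log2 0.43, adjusted p = 0.00156). SKA3 ranged from 46.6 to 70.0 CPM in the controls and from 62.6 to 73.6 CPM after E4F1 shRNA and did not pass (log2 0.28, adjusted p = 0.0563). Without control library 2, its highest control, SKA3 passed, at log2 0.48 with adjusted p = 1.56e-05, but leaving out the highest control raises a difference by itself. SKA2 was at 155, 161 and 149.8 CPM against 145, 141 and 134 CPM, and it fell (log2 −0.15, SE 0.0544, adjusted p = 0.0476). Every E4F1 shRNA library was below every control for SKA2. The call is at the edge of the threshold and was lost in 9 of the 17 alternative settings.

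In the spindle checkpoint 4 of 5 genes rose and 1 fell, where 14.4% of all genes tested rose and 14.4% fell. The median log2 fold change of the 5 genes was 0.18. MAD2L1, which encodes the MAD2 protein that inhibits CDC20, was at 130.3, 133 and 117 CPM in the controls and 155, 166 and 154 CPM after E4F1 shRNA (log2 0.32, adjusted p = 0.000717). MAD1L1, which encodes MAD1, the kinetochore platform that converts MAD2 to its active form, went the other way. It was at 61.6, 64.7 and 74.0 CPM in the controls and 51.4, 53.5 and 55 CPM after E4F1 shRNA, from 66.7 ± 6.46 to 53.3 ± 1.79 CPM (SD, n = 3). Both genes had no overlap between the groups, and MAD1L1 (chr7:1815793-2233243, minus strand) had a log2 fold change of −0.32 (SE 0.0704, adjusted p = 0.00242). MAD1L1 has a GC content of 62.6%, and with a GC-content offset in the edgeR fit its fall was smaller (log2 −0.17, adjusted p = 0.0495).

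BUB1, the kinase that marks centromeric chromatin and recruits other checkpoint proteins, was at 229.5, 241 and 213 CPM in the controls and 268, 263 and 243 CPM after E4F1 shRNA (log2 0.18, adjusted p = 0.0277). BUB3, which binds phosphorylated KNL1, was at 204, 213 and 195 CPM against 233.5, 232 and 221 CPM (log2 0.16, adjusted p = 0.0277). Both rises were small and without overlap, and each call was lost in 7 of the 17 settings. With the GC-content offset BUB1 was at log2 0.10 and BUB3 at 0.07. BUB1B, which encodes BUBR1, a part of the complex that inhibits the anaphase-promoting complex, was at 98.5, 112 and 84.8 CPM against 129, 122 and 113 CPM (log2 0.30, adjusted p = 0.00963). Of its exonic bases 10.2% are shared with the readthrough gene BUB1B-PAK6. Pseudogenes named after CENPC, CENPI, CENPU, SKA2, BUB1 and BUB3 are annotated, so the values of these genes are uncertain to the extent that reads map to the copies.

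Levels could be compared between genes only after division by the length of the annotated exons. In the controls the highest were NDC80 at 56.4, CENPF at 50 and SKA2 at 49.4 CPM per kb, and the lowest were CENPP at 1.28 and CENPT at 4.27 CPM per kb. ZWINT went from 44.0 to 81.2 CPM per kb. Within the NDC80 complex the control levels were 56.4 CPM per kb for NDC80, 30.4 for SPC25, 24.0 for NUF2 and 8.26 for SPC24. Annotated exons include those of rare transcripts, which lowers this value for genes with many of them.

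The control libraries differed from each other more than the E4F1 shRNA libraries did in most of the genes, and in 31 of 40 their order from high to low was 2, 1, 3, against 21.3% of all genes tested. Control library 2 was the highest control in 36 of 40 genes, against 37.7% of all genes tested, and control library 3 the lowest in 32, against 34.4%. The coefficient of variation was larger in the controls than in the E4F1 shRNA libraries in 36 of 40 genes, against 57.3% of all genes tested, with medians over the 40 of 11.7% and 5.25%. Set against each control on its own, the mean of the E4F1 shRNA libraries had a median log2 difference of 0.290 from control library 1, 0.119 from control library 2 and 0.444 from control library 3. All 3 E4F1 shRNA libraries were above control library 1 in 34 genes, above control library 2 in 25 and above control library 3 in 35. Over all genes tested these shares were 34.9%, 32.7% and 37.1%. In 15 of the 40 genes control library 2 was above the lowest E4F1 shRNA library, against 10609 of all 15765 genes tested. E4F1 shRNA library 3 was the lowest of its group in 32 genes, against 36.2% of all genes tested.

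The number of calls also depended on single libraries. Without control library 2, 34 of the 40 genes rose, against 17.6% of all genes tested that rose in that fit, and the median log2 fold change was 0.39. Without control library 3, 18 genes rose, against a background of 10.4%. Without E4F1 shRNA library 2, 19 rose, against a background of 9.94%. Without control library 3 the calls of HJURP, MIS18A, CENPC, CENPI, CENPK, CENPO, NDC80, MIS12, ZW10, BUB1 and BUB3 were lost, and without E4F1 shRNA library 2 those of the same genes other than MIS12, and that of SKA2.

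**Figure D4:**
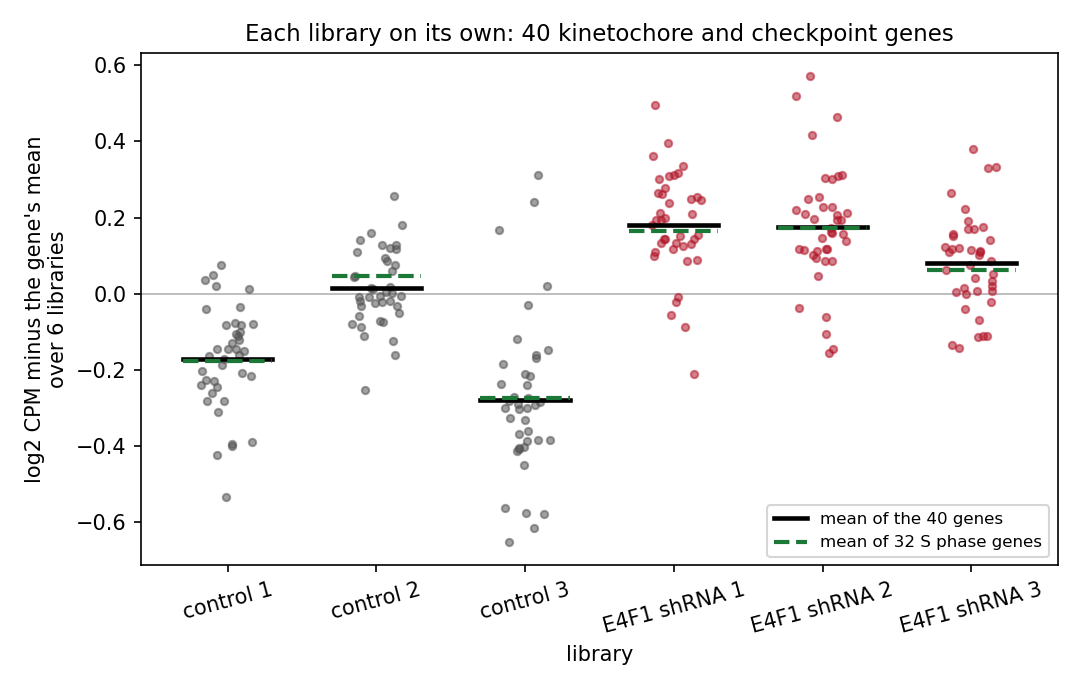
Log2 CPM of each of the 40 genes minus its mean over the 6 libraries, as points by library, with the mean over the genes in black and the mean of 32 S phase genes as a green dashed line. The black and green lines run almost on top of each other, lowest in control library 3, near 0 in control library 2 and highest in E4F1 shRNA libraries 1 and 2.

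Genes of DNA replication moved with the kinetochore genes. A list of 32 S phase genes that shares no member with the 40, among them the MCM2 to MCM7 helicase subunits, PCNA and the ribonucleotide reductase genes, summed to 4213, 4860 and 3983 CPM in the controls and 5264, 5274 and 4896 CPM after E4F1 shRNA. Of these, 19 rose (59.4%) and none fell in edgeR, where 14.4% of all genes tested rose and 14.4% fell. Control library 2 was the highest control in all 32, against 37.7% of all genes tested. The mean log2 deviation of the kinetochore genes was −0.17, 0.014 and −0.28 in the controls and 0.18, 0.18 and 0.082 after E4F1 shRNA. That of the S phase genes was −0.18, 0.047 and −0.27 in the controls and 0.17, 0.17 and 0.063 after E4F1 shRNA. The difference between the 2 means was between −0.034 and 0.018 in every library.

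With the mean log2 CPM of the S phase genes as a covariate in the edgeR fit, most of the rises did not pass. CENPQ, CENPU and ZWINT rose in that fit, with log2 values of 0.56 (adjusted p = 0.00541), 0.34 (adjusted p = 0.0119) and 0.48 (adjusted p = 0.000128), against 3.74% of all genes that rose. OIP5 was at log2 0.42 with adjusted p = 0.0538. CENPA (log2 −0.42, adjusted p = 0.0109) and SKA2 (log2 −0.25, adjusted p = 0.0447) fell in it, against 2.59% of all genes that fell. The median log2 fold change of the 40 genes was 0.037 in that fit, and 26 of the 29 rises did not pass. The score is itself higher after E4F1 shRNA, so group and score share much of their variation over 6 libraries, and their parts cannot be told apart.

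The genes also differed in how closely they followed the others. The Pearson correlation of a gene with the mean of the other 39 over the 6 libraries, a description of points that share depth and libraries, was 0.80 to 0.99 for 34 genes, from CENPM to SPC25. CENPA was at 0.48 and CENPW at 0.10. The 4 genes with negative values were SKA2 at −0.48, PMF1 at −0.59, CENPT at −0.74 and MAD1L1 at −0.91.

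Other genes of the pathway gave a mixed picture. Of 32 kinetochore, centromere and anaphase genes outside the 40, all tested, 12 rose (37.5%), 1 fell and 19 did not pass. Their median log2 fold change was 0.13, and of all genes tested 14.4% rose and 14.4% fell. BIRC5, which encodes survivin of the chromosomal passenger complex, was at 191.8, 228 and 175 CPM in the controls and 268, 269 and 259 CPM after E4F1 shRNA (log2 0.42, adjusted p = 0.000396). ZWILCH, the partner of ROD and ZW10, was at 139, 145 and 134 CPM against 169.7, 181 and 167 CPM (log2 0.31, adjusted p = 0.000496). SGO1, the protector of centromeric cohesion, was at 36.3, 37.7 and 29.5 CPM against 50.9, 45.5 and 45.7 CPM (log2 0.46, adjusted p = 0.000754). These 3 genes had no overlap between the groups.

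SGO2, the second shugoshin, rose from 97.6 ± 11.6 to 126 ± 11.1 CPM (SD, n = 3, log2 0.37, edgeR adjusted p = 0.00189), and the spindle protein SPAG5 from 153 ± 16.4 to 190.2 ± 6.73 CPM (SD, n = 3, log2 0.31, edgeR adjusted p = 0.00217). The dynein regulator NDEL1 fell by 0.22 on the log2 scale (adjusted p = 0.0232). Genes with roles in mitosis were found on both sides of the threshold, and those named next were chosen after their values were seen. The checkpoint kinase TTK rose (log2 0.40, adjusted p = 0.00246), as did the microtubule depolymerase KIF2C (log2 0.21, adjusted p = 0.0464) and CDCA8, or borealin, of the passenger complex (log2 0.20, adjusted p = 0.0405). The log2 difference was 0.02 for the kinase PLK1, 0.02 for CDC20, the activator of the anaphase-promoting complex, 0.07 for the kinase AURKB and 0.00 for TRIP13, the ATPase that takes apart the checkpoint complex, and none of these 4 passed. Without control library 2, the highest control for both, PLK1 (log2 0.16, adjusted p = 0.0363) and AURKB (log2 0.22, adjusted p = 0.0291) passed, but leaving out the highest control raises a difference by itself. Of the 32 genes 20 rose in that fit, against 17.6% of all genes tested. In the fit with the S phase score none of the 32 genes rose in edgeR, against 3.74% of all genes tested. Of the 32, 1 was higher in it at an unadjusted p under 0.05. PLK1 fell in the fit with the S phase score (log2 −0.26, edgeR adjusted p = 0.0498), where 2.59% of all genes tested fell.

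The promoters of 33 of the 40 genes were found in RefSeq (GRCh38.p14), as the 250 bases before the start, and were searched on both strands for letters known from promoters of cell cycle genes. For 32 of the 33, bases just after that start were found in a transcript of the same gene, and all 33 were counted. The windows searched were not trimmed where the annotated gene starts earlier, as in ZWINT by 16 and in HJURP by 31 bases. The CHR element, TTTGAA or TTTAAA, which recruits the DREAM and MuvB complexes, occurred in 10 promoters (30.3%), against 22.1% of all 27305 promoters and 14.6% of those of tested genes. CCAAT, bound by NF-Y, occurred in 20 (60.6%), against 33.0% and 34.5%, and 14 promoters held it at least 2 times, against 10.0% of all. The E2F letters TTTCCCGC, TTTGGCGC or TTTCGCGC occurred in 4 (12.1%), against 2.38% and 3.75%. TGACGT, the core of the ATF and CREB site that is also part of the E4F1 site of the adenovirus E4 promoter, occurred in 6 (18.2%), against 7.42% and 10.1%. A match is a description of the letters in this window and not a bound site.

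The promoters of 4 genes are shown here, ZWINT and CENPQ for the largest rises, CENPF for its high level and HJURP as a gene whose groups overlapped, chosen after their values were seen, with the CHR, CCAAT and TGACGT letters of either strand in capitals and each trimmed to the bases before the annotated starts.
ZWINT, chr10:56361276-56361379, minus strand: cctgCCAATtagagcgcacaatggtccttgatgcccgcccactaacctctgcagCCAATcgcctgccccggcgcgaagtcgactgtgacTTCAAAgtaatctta
CENPQ, chr6:49463250-49463369, plus strand: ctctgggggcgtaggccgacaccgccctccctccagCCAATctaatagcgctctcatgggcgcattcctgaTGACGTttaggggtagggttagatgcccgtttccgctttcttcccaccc
CENPF, chr1:214603075-214603194, plus strand: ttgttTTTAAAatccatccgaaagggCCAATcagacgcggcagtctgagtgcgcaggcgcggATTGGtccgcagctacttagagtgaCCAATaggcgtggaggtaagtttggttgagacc
HJURP, chr2:233854567-233854655, minus strand: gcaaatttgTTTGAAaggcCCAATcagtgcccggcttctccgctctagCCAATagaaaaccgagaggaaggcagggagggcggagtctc
ZWINT, CENPF and HJURP hold both CHR and CCAAT letters, and CENPQ holds CCAAT and TGACGT. The median log2 fold change was 0.34 with and 0.28 without the CHR letters, 0.29 with and 0.29 without CCAAT, 0.48 with and 0.29 without the E2F letters, and 0.38 with and 0.28 without TGACGT.

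The heptamer CTTATCT, which an earlier analysis of the same libraries had picked out in 3′ untranslated regions and which is therefore no independent evidence, was found in 5 of the 40 genes (12.5%), against 10.3% of 13013 tested genes with such a region. The sites are shown on the strand of the gene with their flanks (GRCh38, heptamer in capitals, which the coordinates span), since ZWINT and OIP5, both among the 4 largest rises, hold one.
OIP5, chr15:41309500-41309506: aattcataataCTTATCTctgaaaatgtc
SPC24, chr19:11146384-11146390: acgggagtcgaCTTATCTatgccaggcct
ZWINT, chr10:56357693-56357699: tctttttgtgcCTTATCTaaaacatttct
BUB3, chr10:123170049-123170055: cagagtgagacCTTATCTtaatctaaaaa
SKA2, chr17:59111528-59111534: ttagaagagcaCTTATCTgctacttgcca
Of these genes OIP5, SPC24, ZWINT and BUB3 rose and SKA2 fell. Of the 35 genes without the heptamer 25 rose, against 14.4% of all genes tested. The median log2 fold change was 0.53 in the 5 genes with the heptamer and 0.27 in the 35 without it. Over the tested genes with such a region it was 0.17 with and −0.02 without the heptamer.

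The exons of the 40 genes were also poorer in G and C than those of other genes, with a median GC content of 41.9% against 48.4% of all genes tested, and 31 of the 40 lay below that median. With a GC-content offset in the edgeR fit 20 of the 40 genes rose, against a background of 12.5%, and the median log2 fold change was 0.21. The 10 rises that did not pass with that offset were those of MIS18A, CENPC, CENPI, CENPK, NDC80, NUF2, MIS12, ZW10, BUB1 and BUB3.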

How the data were processed

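RNA sequencing of 3 control (scramble shRNA) and 3 E4F1 shRNA libraries of U2OS cells was used. The deposited tables are unnormalized counts for each gene, 1 table a library. STAR 2.5.1b, bcl2fastq 2.20 and the build GRCh38 are named per the submitters' processing notes, and the annotation release was not given in those sources. The reverse-strand counts were used, since they summed to 14947085 to 16892139 in genes and the forward-strand ones to 885046 to 977742. Lines that name no gene took 27.1% to 31.7% of a table's reads and were left out. Symbols and coordinates (1-based) came from GENCODE 29, which matched 57881 of 58219 identifiers.

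Groups were compared over all 15765 genes left by filterByExpr with edgeR 4.0.16 (R 4.3.3), TMM scaling and the two-sided quasi-likelihood F-test, with Benjamini-Hochberg adjustment over all of them and a threshold of 0.05. CPM are TMM-scaled, except those of the cell type markers, which are scaled by library totals alone, and errors are SD or the SE of the fit. The log2 fold change is that of E4F1 shRNA libraries over controls, and those of single libraries are log2 CPM with a prior count of 2. With 3 libraries against 3, no exact permutation p can be below 0.1. The steps were tested on simulated data.

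The 40 genes, the pathway list, the S phase list and the marker lists were chosen with earlier results of these data known. Values per library were given for E4F1, members that passed the test and 13 members listed by name; of the pathway genes, the 5 with the smallest adjusted p were named by rule. Other genes of the pathway were named after their values were seen. The alternatives tried were limma-voom (limma 3.58.1), the Wald test of DESeq2 1.42.0, DESeq2's size factors with edgeR, library totals, no filter, at least 1 CPM in 3 libraries, a replicate block, a GC-content offset, both together, an S phase score, counts ignoring strand, and leaving out each library.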

Additional observations from a re-analysis of the deposited data

How the results depend on the processing

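Of the 29 rises, 16 passed in all 16 settings other than the S phase score, and 3 passed in all 17. With the S phase score as a covariate in edgeR, 998 genes passed in all, 3 of the 40 genes rose, 0 of the pathway genes outside them rose (1 at an unadjusted p under 0.05), and the median log2 fold change was 0.037; HJURP, CENPK, CENPO, NDC80 and BUB1B then had log2 values of −0.036, −0.042, −0.079, −0.0099 and −0.016, with signs opposite to those without it. Only 1 of the 40 genes fell with DESeq2 size factors, with no filter, with the DESeq2 Wald test, with the GC-content offset and replicate block, and with counts ignoring strand. Leaving out 1 library at a time gave 18 to 34 genes that rose (18 without control library 3, 19 without E4F1 shRNA library 2), 1 to 2 that fell, 8 to 20 pathway genes that rose (20 without control library 2) and 3031 to 5370 genes in all (3031 without E4F1 shRNA library 2). The replicate block gave 31 rises, 2 falls and 4865 genes in all. Libraries with the same number had deviations correlated at 0.0070, 0.047 and 0.048, and those with different numbers at −0.11 to 0.077. The numbers were not taken as pairs. SPC24 did not pass with DESeq2, and MAD1L1 did not pass with the GC-content offset and replicate block or with the S phase score. The cause of these differences was not tested.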
